A study of Mus musculus with 84 samples.

Results

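The genes described here are 45 collagens and other genes of the extracellular matrix, taken by name from a fixed list, out of 48794 gene identifiers listed in the tables of the series. They comprise 6 fibrillar collagens, 6 collagens of basement membranes and multiplexins, 7 beaded, network and fibril-associated collagens, 3 genes of fibronectin and elastic fibres, 8 small proteoglycans and matricellular proteins, 4 laminins and nidogen, 3 crosslinking enzymes, 5 proteases and protease inhibitors, and 3 genes of TGF-beta and contractile cells. Each of the 45 was matched to 1 identifier and was tested in both tissues. The samples were liver and epididymal white adipose tissue (eWAT) of diet-induced obese male C57BL/6J mice, housed singly on a diet with 60% fat and 22 weeks old at the start. In each tissue there were 7 groups of 6 libraries. The groups received, by daily subcutaneous injection for 30 days, vehicle, BI 456906 (doses of 3, 10, 20 and 30 nmol/kg) or semaglutide (doses of 20 and 100 nmol/kg). BI 456906 is a peptide agonist of both the glucagon receptor and GLP-1R, the receptor of glucagon-like peptide 1, and semaglutide is an agonist of the GLP-1R. All mice, controls included, carried the obesity of the diet, and no lean group was analysed here, so each value is relative to obese mice given vehicle. The labels do not tie a liver library to an eWAT library of the same mouse.

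Fibrillar collagens are triple helices that assemble into the cable-like fibres of connective tissue, are crosslinked by lysyl oxidases, and are cut by matrix metalloproteinases that the TIMP proteins inhibit. Basement membranes are sheets of type IV collagen, laminin and nidogen that lie under endothelium and epithelium and around every adipocyte. In liver the main producer of fibrillar collagen is the hepatic stellate cell, and collagen deposition there is the hallmark of fibrosis in fatty liver disease. In fat, adipocytes and their fibroblast-like precursors produce much of the matrix, and the matrix is remodelled when adipocytes grow or shrink. In whole tissue, fewer cells of a type and less RNA per cell cannot be told apart.

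Levels are given as TPM, a share of all transcripts that is corrected for transcript length, as the lowest, median and highest of the 6 libraries of a group. Changes are log2 fold changes, treated over vehicle, ± the standard error, from limma/voom on the read counts of all genes, and FDR is the Benjamini-Hochberg adjusted p over all genes tested. A gene is said to have risen or fallen at an FDR of at most 0.05, and the share of all genes tested that passed in the same direction is given as the background.

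In vehicle-treated mice the members were, with few exceptions, far more abundant in eWAT than in liver. The liver and eWAT tables were scaled separately, so these levels are set side by side as a description, with no test. In eWAT the most abundant member was Sparc, a collagen-binding matricellular protein, with 1983, 2551 and 4071 TPM, followed by the small proteoglycan decorin (Dcn) with 1100.2, 1299 and 1626 TPM. In liver the most abundant members were fibronectin (Fn1), which hepatocytes secrete into plasma, with 452, 502 and 533 TPM, and Col18a1, the precursor of endostatin, with 292, 397 and 431 TPM. For Col18a1 the order was turned, since the 6 eWAT libraries held 98.9 to 178 TPM, below every liver library. The vehicle values of 3 members overlapped between the tissues, namely Fn1, Col14a1 and Col4a3. For each of the other 41 members every eWAT value exceeded every liver value. The ratio of the medians among them ran from 2.57 for Tgfbi to 255 for thrombospondin 1 (Thbs1), with 23.6 for Col1a1, 24.3 for Col3a1, 96.3 for Col15a1 and 234 for the crosslinking enzyme Lox.

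The proximal promoters of 4 members whose values the results turn on are printed here so that they can be read beside those values. They are the fibrillar collagen gene Col3a1 and the inhibitor gene Timp1, which fell in liver, the basement membrane zone collagen gene Col15a1, which fell in both tissues, and the thrombospondin gene Thbs2, which rose in eWAT. Each run holds the 250 bases before the RefSeq start of the gene on GRCm38.p6, read 5′ to 3′ on the strand of the gene, and none overlaps an annotated exon. The positions are chr1:45311288-45311537 on the plus strand for Col3a1, chrX:20869916-20870165 on the plus strand for Timp1, chr4:47207762-47208011 on the plus strand for Col15a1 and chr17:14694263-14694512 on the minus strand for Thbs2. Capitals mark matches, on either strand, to the TATA box TATAAA, the CCAAT box CCAAT, the GC box GGGCGG or the AP-1 site TGANTCA.
Col3a1: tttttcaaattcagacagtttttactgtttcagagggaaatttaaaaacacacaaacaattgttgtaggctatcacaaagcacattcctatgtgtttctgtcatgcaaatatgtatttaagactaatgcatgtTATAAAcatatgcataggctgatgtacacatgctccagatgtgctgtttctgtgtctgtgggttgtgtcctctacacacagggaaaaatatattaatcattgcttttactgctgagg
Timp1: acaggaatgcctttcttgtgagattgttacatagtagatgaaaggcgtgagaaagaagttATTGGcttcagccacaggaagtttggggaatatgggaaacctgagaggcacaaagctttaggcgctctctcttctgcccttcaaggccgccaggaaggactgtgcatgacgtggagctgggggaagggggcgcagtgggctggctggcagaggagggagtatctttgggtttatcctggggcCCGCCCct
Col15a1: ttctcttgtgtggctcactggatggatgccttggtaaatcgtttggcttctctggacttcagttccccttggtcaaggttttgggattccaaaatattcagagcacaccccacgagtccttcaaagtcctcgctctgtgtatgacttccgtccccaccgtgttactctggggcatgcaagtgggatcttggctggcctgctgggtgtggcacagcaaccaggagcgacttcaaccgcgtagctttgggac
Thbs2: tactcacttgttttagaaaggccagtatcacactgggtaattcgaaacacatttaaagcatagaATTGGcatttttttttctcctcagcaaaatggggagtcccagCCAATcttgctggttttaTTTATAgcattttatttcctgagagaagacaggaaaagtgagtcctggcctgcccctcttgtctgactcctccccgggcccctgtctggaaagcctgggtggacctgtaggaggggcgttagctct

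The Col3a1 window held a TATA box 117 to 112 bases before the start. The Timp1 window held a GC box 8 to 3 bases and a CCAAT box 190 to 186 bases before the start, both on the opposite strand. The Thbs2 window held CCAAT boxes at 186 to 182 bases on the opposite strand and at 144 to 140 bases on the strand of the gene, and a TATA box at 126 to 121 bases on the opposite strand. The Col15a1 window held none of the 4 motifs. RefSeq windows were at hand for 29 of the 45 members. Of these, 18 held the GC box (62.1%, against 32.7% of all 32851 windows of the same length), 12 the CCAAT box (41.4% against 33.8%), 3 the TATA box (10.3% against 12.4%) and 1 the AP-1 site (3.45% against 6.75%). These are matches of letters, not sites shown to be bound.

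The recovered read totals were 21676902 to 53869104 per liver library and 37573004 to 53996914 per eWAT library, which leaves few reads for the rarest members. In liver, Timp1 had 7 to 60 reads per library in vehicle and 0 to 8 at 30 nmol/kg of BI 456906, and Col4a3 had 6 to 52 over all 42 libraries. The tissue labels were checked with marker lists. The summed hepatocyte markers held 73752 to 113885 TPM in liver and 93.4 to 6249 TPM in eWAT, and the summed adipocyte markers 10809 to 34196 TPM in eWAT and 30.0 to 229 TPM in liver. Markers of epididymal epithelium summed to at most 5.06 TPM in eWAT. A single eWAT library of the group given semaglutide at 100 nmol/kg, replicate 40, stood apart for several members, and results that rest on it are given with and without it.

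**Figure D1:**
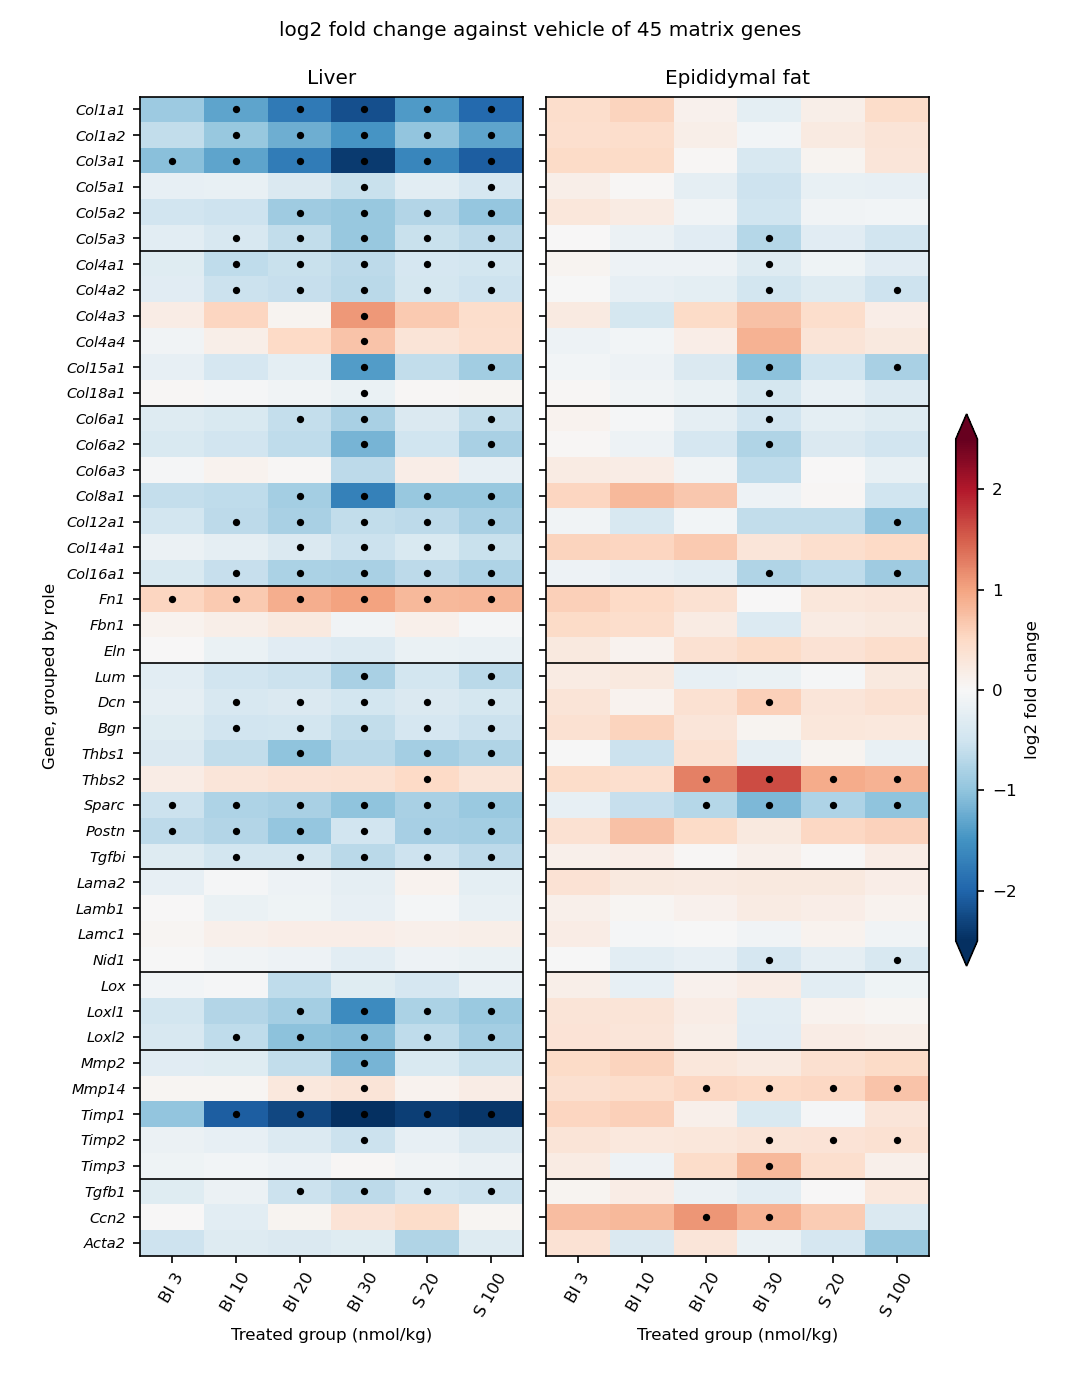
Heat map of the log2 fold change against vehicle for the 45 members (rows, in their role groups) in liver and in eWAT, with a column for each dose of BI 456906 (BI, in nmol/kg) and semaglutide (S). Blue is lower and red higher than vehicle on a colour scale from -2.5 to 2.5, and a dot marks an FDR of at most 0.05. The liver columns are mostly blue from 10 nmol/kg of BI 456906 on, with dots for 15 lower and 1 higher of the 45 members at 10 nmol/kg and for 28 and 4 at 30 nmol/kg, whereas the eWAT columns are mixed and carry few dots below 30 nmol/kg.

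In liver, collagen and matrix genes fell with treatment, and more of them did so at each higher dose of BI 456906. At 30 nmol/kg 28 of the 45 members fell and 4 rose (background 29.9% lower and 28.9% higher). Across the doses, 3 members fell and 1 rose at 3 nmol/kg (background 4.93% and 8.46%), 15 fell and 1 rose at 10 nmol/kg (18.1% and 19.4%), and 22 fell and 2 rose at 20 nmol/kg (22.9% and 23%). With semaglutide 21 members fell and 2 rose at 20 nmol/kg (23.5% and 23%), and 26 fell and 1 rose at 100 nmol/kg (24.1% and 24%). The median log2 fold change of the 45 members was -0.62 against -0.03 for all genes tested at 30 nmol/kg of BI 456906, and -0.53 against -0.02 at 100 nmol/kg of semaglutide. Over the doses of BI 456906 29 members had a falling and 4 a rising slope (background 29.6% and 29.3%). With the further requirement of a log2 fold change of at least 1 in size, 11 members fell and 1 rose at 30 nmol/kg (background 6.9% and 5.99%).

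All 6 fibrillar collagens fell in liver at 30 nmol/kg. Col1a1, which encodes the alpha1 chain of type I collagen, was at 4.25, 8.91 and 19.2 TPM in vehicle, 1.32, 1.75 and 4.21 TPM at 30 nmol/kg of BI 456906 and 1.32, 2.44 and 3.13 TPM at 100 nmol/kg of semaglutide. Neither treated group overlapped vehicle. The fold changes were -2.19 ± 0.40 (FDR 1.14e-05) and -1.95 ± 0.38 (FDR 6.52e-05), and the medians over the doses of 3, 10 and 20 nmol/kg were 4.21, 4.13 and 2.12 TPM. Its partner chain Col1a2 held 7.31, 12.8 and 25.1 TPM in vehicle and 3.66, 4.52 and 8.64 TPM at 30 nmol/kg, where the highest library entered the vehicle range. Col1a2 fell by less than Col1a1, with -1.47 ± 0.27 (FDR 1.57e-05). The ratio of Col1a1 to Col1a2 in TPM was 0.525, 0.684 and 0.767 in vehicle and 0.333, 0.394 and 0.487 at 30 nmol/kg, ranges that did not overlap.

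Col3a1, the single chain of type III collagen, which is laid down with type I in reticular fibres, held 12.5, 24.6 and 41.03 TPM in vehicle and 2.95, 4.5 and 7.53 TPM at 30 nmol/kg. The ranges did not overlap, and the fold change was -2.39 ± 0.33 (FDR 9.25e-08). It was the sole member with a log2 fold change of at least 1 in size at 3 nmol/kg, where it was -1.04 ± 0.31 (FDR 0.0212), although its highest library there, at 29.7 TPM, lay above the vehicle median. Col5a3, a minor chain of type V collagen, held 11.3, 17.2 and 20.9 TPM in vehicle and 8.23, 9.34 and 10.3 TPM at 30 nmol/kg, without overlap, with -0.94 ± 0.16 (FDR 3.6e-06). Type V collagen nucleates the fibrils of type I, and its other chains Col5a1 and Col5a2 also fell (-0.55 and -0.94), with ranges that overlapped vehicle. Summed, the 6 fibrillar collagens held 42.7, 67.1 and 113 TPM in vehicle, 18.8, 23.5 and 33.8 TPM at 30 nmol/kg of BI 456906 and 17.2, 30.2 and 33.3 TPM at 100 nmol/kg of semaglutide. The vehicle libraries were themselves spread, with 3 at 42.7 to 50.3 TPM and 3 at 83.95 to 112.6 TPM.

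**Figure D2:**
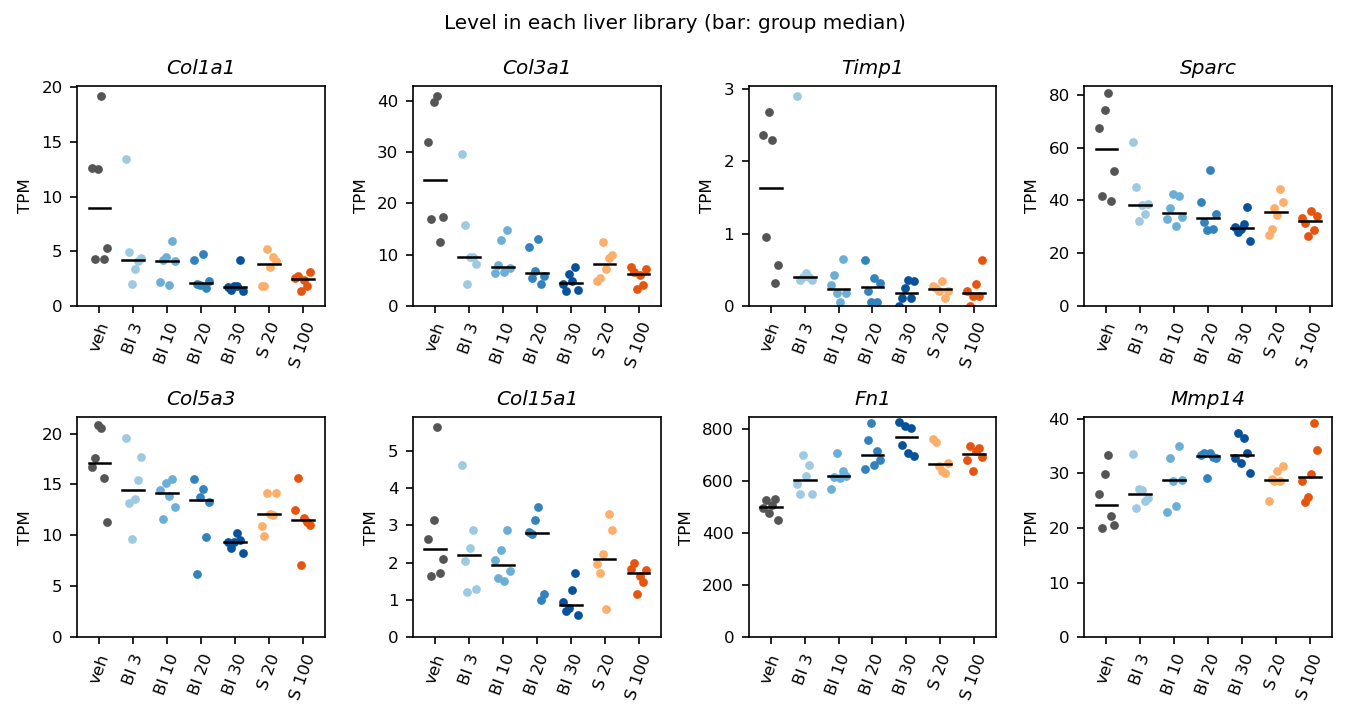
Levels in liver, in TPM, of Col1a1, Col3a1, Timp1, Sparc, Col5a3, Col15a1, Fn1 and Mmp14 (panels) in the 7 treatment groups, with a point for each library and a bar at the group median. The 6 values of Col1a1, Col3a1, Sparc and Col5a3 at 30 nmol/kg of BI 456906 lie below the 6 of vehicle, and those of Fn1 lie above vehicle in all 6 treated groups.

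Of the basement membrane and multiplexin collagens, 4 fell and 2 rose in liver at 30 nmol/kg. Col15a1, a collagen that links basement membrane to the fibres beneath it, held 1.64, 2.38 and 5.64 TPM in vehicle and 0.59, 0.855 and 1.73 TPM at 30 nmol/kg, with -1.40 ± 0.33 (FDR 0.000412), or -0.88 on log2(TPM + 1), and 1 treated library reached the vehicle range. At 20 nmol/kg its median was 2.8 TPM, above that of vehicle, with -0.24 ± 0.28 (FDR 0.509). Col4a1 and Col4a2, the chains of the common type IV network, fell (-0.66 and -0.67), as did the abundant Col18a1 (-0.16, FDR 0.0434). Col4a1 and Col4a2 lie head to head on chromosome 8 and overlap by 22 bases. The 2 that rose were the rare chains of the alpha3-alpha4-alpha5 network, Col4a3 with 1.09 ± 0.31 (FDR 0.00261) and Col4a4 with 0.71 ± 0.23 (FDR 0.00648), at medians of 0.165 and 0.13 TPM. They lie head to head, 71 bases apart, on chromosome 1, and the Col4a3 change was 0.60 on log2(TPM + 0.1) and 0.11 on log2(TPM + 1).

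Among the beaded, network and fibril-associated collagens 6 of 7 fell at 30 nmol/kg. Col8a1, a short-chain network collagen, held 0.19, 0.38 and 0.74 TPM in vehicle and 0.090, 0.105 and 0.18 TPM at 30 nmol/kg, a low level in each group, with no overlap and -1.70 ± 0.36 (FDR 0.00011), or -0.32 on log2(TPM + 1). Col14a1, which coats collagen fibrils, held 20.99, 31 and 36.99 TPM and 15.9, 16.6 and 19.8 TPM, also with no overlap, and fell, with -0.54 (FDR 0.000345). Col16a1 held 2.78, 4.61 and 5.64 TPM in vehicle and 2.14, 2.93 and 3.23 TPM at 30 nmol/kg, with -0.81 ± 0.18 (FDR 0.000136). Of the type VI chains, which form beaded filaments around cells, Col6a2 fell from 3.11 to 9.63 TPM to 1.56 to 4.01 TPM, with -1.17, and Col6a1 with -0.82. The third chain Col6a3 had a change of -0.66 ± 0.31 (FDR 0.0651) and did not pass. Col12a1 fell, with -0.62.

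Fibronectin moved the other way. Fn1 held 452, 502 and 533 TPM in vehicle and 696, 771 and 825 TPM at 30 nmol/kg, with 1.00 ± 0.11 (FDR 2.13e-09). In each of the 6 treated groups all 6 libraries lay above all 6 of vehicle, and the fold changes were 0.53, 0.66 and 0.90 at 3, 10 and 20 nmol/kg of BI 456906 and 0.81 and 0.84 at 20 and 100 nmol/kg of semaglutide. On log2(TPM + 1) the change at 30 nmol/kg was 0.61, with an FDR of 8.02e-10, so its size depends on the measure. The elastic fibre genes Fbn1 and Eln, with changes of -0.08 and -0.33, did not pass. In all, 6 members had 6 values below all of vehicle at 30 nmol/kg, namely Col1a1, Col3a1, Col5a3, Col8a1, Col14a1 and Sparc (background 10.8%), and Fn1 alone lay above (background 18.6%).

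Of the 8 small proteoglycans and matricellular proteins 6 fell in liver. Sparc held 39.8, 59.5 and 80.6 TPM in vehicle and 24.4, 29.5 and 37.5 TPM at 30 nmol/kg, without overlap, with -1.01 ± 0.14 (FDR 8.41e-08). It also fell at 3 nmol/kg, with -0.53 (FDR 0.0105). Periostin (Postn), which binds collagen in healing tissue, fell in every treated group, with -0.66 at 3 nmol/kg, -0.97 at 20 nmol/kg and -0.48 at 30 nmol/kg. The TGF-beta-induced protein gene Tgfbi held 30.1, 41.4 and 54.6 TPM in vehicle and 23.4, 25.7 and 34 TPM at 30 nmol/kg and fell, with -0.67. The leucine-rich proteoglycans Lum, Dcn and Bgn, which bind and space collagen fibrils, fell, with -0.81, -0.46 and -0.61. Dcn was at 115, 161 and 219 TPM in vehicle and 108, 114 and 171 TPM at 30 nmol/kg, ranges that overlapped. Of the thrombospondins, Thbs1 fell at 20 nmol/kg of BI 456906, with -1.01 from 0.33 to 2.24 TPM to 0.23 to 0.72 TPM, and had -0.68 ± 0.32 (FDR 0.0623) at 30 nmol/kg. It also fell with semaglutide, at -0.84 ± 0.32 (FDR 0.0301) with 20 nmol/kg and -0.76 ± 0.32 (FDR 0.0473) with 100 nmol/kg, where the call was kept in 4 of the 18 fits that left out 1 library. Thbs2 rose with semaglutide at 20 nmol/kg, by 0.49, and had 0.38 ± 0.21 (FDR 0.114) at 30 nmol/kg of BI 456906. In that semaglutide group limma called 2 members higher, Fn1 and Thbs2, while edgeR and DESeq2 each called 1.

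The laminin genes Lama2, Lamb1 and Lamc1 and the nidogen gene Nid1, the non-collagen parts of the basement membrane, did not pass in liver in any treated group, with changes of -0.22, -0.21, 0.16 and -0.25 at 30 nmol/kg. Of the crosslinking enzymes, Loxl1 fell from 0.98, 1.97 and 3.99 TPM to 0.45, 0.585 and 1.52 TPM, with -1.56 (FDR 0.000241), and Loxl2 from 1.15, 1.91 and 3.15 TPM to 0.80, 1.08 and 1.37 TPM, with -1.06 (FDR 0.000311). The ranges overlapped vehicle for both, and on log2(TPM + 1) the changes were -0.80 for Loxl1 and -0.47 for Loxl2. Lox, at a vehicle median of 0.145 TPM, did not pass.

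Timp1, the inhibitor that is produced by activated stellate cells, had the largest fall of the 45 members in liver at 30 nmol/kg. It held 0.31, 1.62 and 2.68 TPM in vehicle, 0, 0.17 and 0.35 TPM at 30 nmol/kg of BI 456906 and 0, 0.17 and 0.64 TPM at 100 nmol/kg of semaglutide, so that a low vehicle library lay within the treated ranges. The change was -3.05 ± 0.63 (FDR 8.06e-05), and -2.05 ± 0.54 (FDR 0.00262) at 10 nmol/kg. With so few reads its size depends on the pseudocount, and on log2(TPM + 1) it was -0.98 (FDR 0.000171). The gelatinase gene Mmp2 held 1.55, 3.36 and 7.06 TPM in vehicle and 0.68, 1.3 and 3.63 TPM at 30 nmol/kg, with -1.17 ± 0.40 (FDR 0.0117), or -0.77 on log2(TPM + 1), and overlapping ranges. Mmp14, the membrane-bound protease that activates Mmp2, rose from 19.9, 24.1 and 33.4 TPM to 30.01, 33.3 and 37.3 TPM, by 0.33 (FDR 0.00337). Timp2 had -0.53 ± 0.20 (FDR 0.0207), which did not pass on the TPM scales or without vehicle replicate 43 or 46 or BI 456906 replicate 68 or 69 (-0.37 and FDR 0.0966 without replicate 46), and Timp3 had 0.03. Tgfb1, the growth factor that drives matrix production, held 7.3, 10.01 and 12.8 TPM in vehicle and 5.58, 6.67 and 7.41 TPM at 30 nmol/kg, with -0.65 ± 0.14 (FDR 8.95e-05). Its target Ccn2 (0.34) and the smooth muscle actin gene Acta2 (-0.31) did not pass.

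The 2 compounds were compared in liver at the equal molar dose of 20 nmol/kg, where limma called no member (background 1.51% lower and 0.908% higher with BI 456906). In that comparison 0 members had an unadjusted p under 0.05 with limma, and edgeR and DESeq2 each called 0. For Col1a1 the difference, BI 456906 minus semaglutide, was -0.34 (95% interval -1.15 to 0.46, FDR 0.763) and for Col3a1 -0.10 (95% interval -0.74 to 0.54, FDR 0.935). Differences within these intervals could not be told from none. Between the highest doses, 30 nmol/kg of BI 456906 and 100 nmol/kg of semaglutide, which differ in dose, limma called no member (background 5.59% and 4.15%), with 3 at an unadjusted p under 0.05, 0 by edgeR and 1 by DESeq2. The differences were -0.24 (95% interval -1.13 to 0.66, FDR 0.796) for Col1a1, -0.33 (95% interval -1.02 to 0.36, FDR 0.604) for Col3a1 and -0.20 (95% interval -0.34 to -0.06, FDR 0.0511) for Col18a1. Between 30 nmol/kg of BI 456906 and 20 nmol/kg of semaglutide, Col18a1 was lower with BI 456906, -0.20 ± 0.07 (FDR 0.0476), the sole member called by limma (background 7.5% and 6.09%). In that comparison edgeR called 0 members and DESeq2 called 2.

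Markers of other cells moved in liver beside the matrix genes. The summed cholangiocyte markers held 37.3 to 168 TPM in vehicle and 16.97 to 57.4 TPM at 30 nmol/kg. Of the 5, Krt19, Sox9 and Spp1 fell, and Krt7 and Epcam did not pass. Most of the sum was Spp1, with a median of 34.7 TPM over the 42 liver libraries against 41.9 TPM for the sum. Of the 10 fibroblast and stellate cell markers 6 fell and 1 rose, and their sum held 254 to 386 TPM in vehicle and 252 to 292 TPM at 30 nmol/kg. Most of that sum was Ecm1, with a median of 164 TPM over the liver libraries against 268 TPM for the sum. Of the 6 macrophage markers 3 fell, and of the 5 endothelial markers 1 fell and 1 rose. The summed hepatocyte markers held 73752 to 88092 TPM in vehicle and 89938 to 103984 TPM at 30 nmol/kg, and 4 of the 6 rose and 2 fell. The summed adipocyte list held 61.9 to 229 TPM and 30.02 to 139 TPM, and the 3 markers tested, Cidec, Fabp4 and Lipe, fell. Adipoq, Plin1 and Lep reached at most 0.55, 0.37 and 0.14 TPM in any liver library and were not tested. The sum thus does not show adipocytes in liver. With semaglutide at 100 nmol/kg the cholangiocyte list summed to 19.5 to 52.2 TPM (2 of 5 markers fell). The fibroblast and stellate cell list summed to 214 to 281 TPM (6 of 10 fell and 1 rose). The hepatocyte list summed to 86646 to 113885 TPM (4 of 6 rose and 1 fell). The adipocyte list summed to 49.6 to 169 TPM, and the same 3 tested markers fell. The part of these cells in the fall of the collagens was not tested.

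In eWAT far fewer of the 45 members passed, and they moved in both directions. At 30 nmol/kg of BI 456906 10 members fell and 6 rose (background 13% and 10.9%). Without replicate 25 of that group 4 fell and 5 rose, and without replicate 26 5 fell and 5 rose. Scaled by library size alone the split was 6 lower and 7 higher. No member was called at 3 nmol/kg (background 0% and 0.00539%; 7 at an unadjusted p under 0.05 with limma, 0 by edgeR and 0 by DESeq2) or at 10 nmol/kg (background 0.464% and 0.0486%; 9 at an unadjusted p under 0.05 with limma, 0 by edgeR and 0 by DESeq2). At 20 nmol/kg Sparc fell and Thbs2, Ccn2 and Mmp14 rose (background 2.91% and 1.36%). With semaglutide at 20 nmol/kg Sparc fell and Thbs2, Mmp14 and Timp2 rose (4.54% and 1.8%). At 100 nmol/kg 6 members fell, namely Sparc, Col15a1, Col4a2, Col12a1, Col16a1 and Nid1, and the same 3 rose (9.42% and 5.48%). Over the doses of BI 456906 13 members had a falling and 7 a rising slope (background 15.8% and 13.8%). The median log2 fold change of the members at 30 nmol/kg was -0.17 against -0.03 for all genes.

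**Figure D3:**
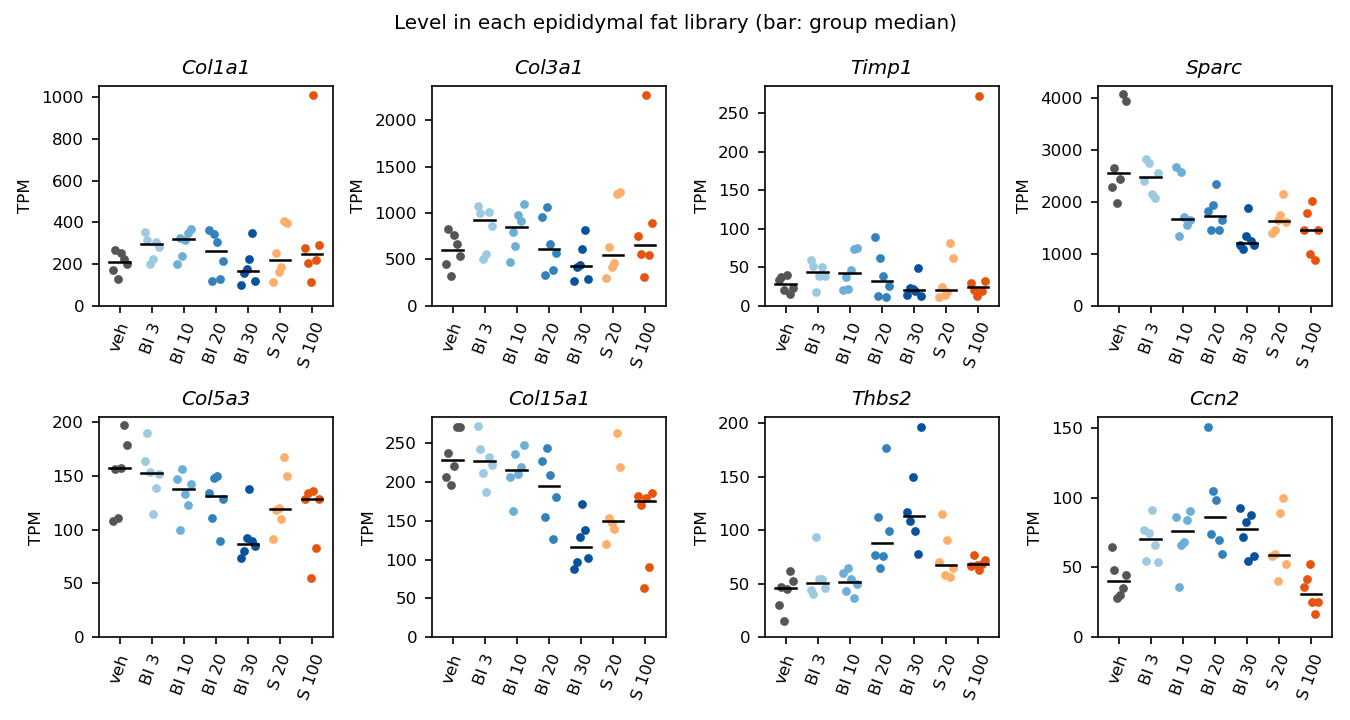
Levels in eWAT, in TPM, of Col1a1, Col3a1, Timp1, Sparc, Col5a3, Col15a1, Thbs2 and Ccn2 (panels) in the 7 treatment groups, with a point for each library and a bar at the group median. The groups overlap for Col1a1, Col3a1 and Timp1, while at 30 nmol/kg of BI 456906 Sparc and Col15a1 lie below and Thbs2 above all vehicle libraries, and 1 library of the group given semaglutide at 100 nmol/kg reaches 1008 TPM for Col1a1.

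The major fibrillar collagens did not pass in eWAT in any treated group. Col1a1 held 128, 210.2 and 267 TPM in vehicle and 100.3, 165 and 349.5 TPM at 30 nmol/kg, with -0.25 ± 0.36 (FDR 0.648). Its median was higher than vehicle at the lower doses, 294 and 319 TPM at 3 and 10 nmol/kg. Col3a1 held 316, 599.5 and 824 TPM in vehicle and 262, 428 and 817 TPM at 30 nmol/kg, with -0.41 ± 0.37 (FDR 0.448), and Col1a2 had -0.06 ± 0.22 (FDR 0.867). At 100 nmol/kg of semaglutide Col1a1 held 115, 247 and 1008 TPM, of which the highest was replicate 40. The change was 0.46 ± 0.38 (FDR 0.437) with that library and 0.07 (FDR 0.915) without it, and for Col3a1 0.30 ± 0.39 (FDR 0.638) with it and -0.04 (FDR 0.954) without it. Of the type V chains Col5a3 fell at 30 nmol/kg, from 108, 157 and 197 TPM to 73.9, 87.1 and 138 TPM, with -0.72 ± 0.19 (FDR 0.00587) and ranges that overlapped through 1 library. The sum of the 6 fibrillar collagens held 929.6, 1556 and 1909.8 TPM in vehicle, 817, 1139 and 1962 TPM at 30 nmol/kg and 839.7, 1594 and 4710.4 TPM at 100 nmol/kg of semaglutide, where replicate 40 was the highest and the next library stood at 2018 TPM.

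**Figure D4:**
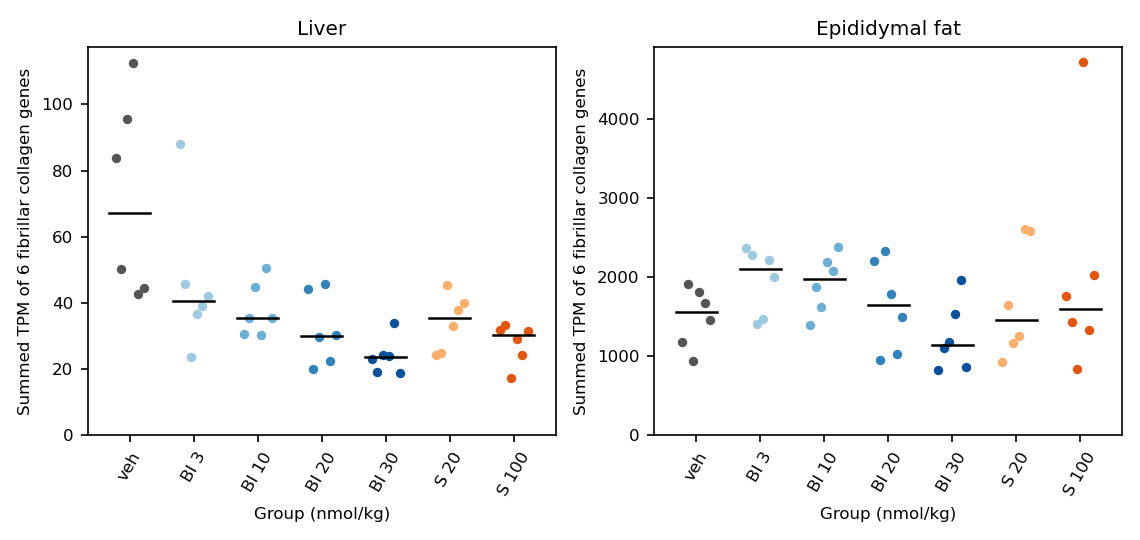
Sum of the 6 fibrillar collagens in TPM in liver and in eWAT for the 7 groups, with a point for each library and a bar at the median. In liver the libraries at 30 nmol/kg of BI 456906 (18.8 to 33.8 TPM) lie below those of vehicle (42.7 to 112.6 TPM), and in eWAT the ranges overlap.

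The genes that fell in eWAT included 4 of the 6 basement membrane and multiplexin collagens, and nidogen. Col15a1 held 195, 229 and 271 TPM in vehicle, 88.2, 116 and 172 TPM at 30 nmol/kg of BI 456906 and 62.97, 175 and 186 TPM at 100 nmol/kg of semaglutide. Both treated groups lay wholly below vehicle, with -1.02 ± 0.22 (FDR 0.00103) and -0.81 ± 0.22 (FDR 0.0119), the second of which did not pass without replicate 39 (-0.58, FDR 0.0531). Col4a1 fell (-0.32), and Col4a2, at 313, 411 and 467 TPM in vehicle and 245, 288 and 327 TPM at 30 nmol/kg, fell with -0.46 (FDR 0.0113). Without replicate 25 of the group at 30 nmol/kg the FDR for Col4a2 was 0.0501. Col18a1 (-0.44) and Nid1 (-0.42) fell, while the laminin genes Lama2, Lamb1 and Lamc1 had 0.23, 0.21 and -0.10 and did not pass. Of the other collagens Col6a2 fell from 277, 399.9 and 444 TPM to 173, 214 and 303 TPM, with -0.74 ± 0.20 (FDR 0.00753), Col6a1 with -0.48 and Col16a1 with -0.76 (FDR 0.0221, not passing without any one of 5 libraries, vehicle replicates 5 and 6 and BI 456906 replicates 25, 26 and 30). Col6a3, Col8a1, Col12a1 and Col14a1 had -0.63, -0.14, -0.62 and 0.29 at 30 nmol/kg and did not pass.

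Sparc fell in eWAT at 20 and 30 nmol/kg of BI 456906 and at both doses of semaglutide. It held 1983, 2551 and 4071 TPM in vehicle, 1094, 1215 and 1873 TPM at 30 nmol/kg and 875, 1457 and 2020.2 TPM at 100 nmol/kg of semaglutide. At 30 nmol/kg no library reached the vehicle range, and the changes were -1.12 ± 0.19 (FDR 8.16e-05) and -1.01 ± 0.19 (FDR 0.000456). In the opposite direction, Thbs2, an inhibitor of angiogenesis that also binds metalloproteinases, held 15.3, 46.01 and 61.8 TPM in vehicle, 64.4, 87.7 and 177 TPM with the dose of 20 nmol/kg and 78.1, 113 and 196 TPM with that of 30 nmol/kg. Semaglutide at 100 nmol/kg gave 62.6, 68.1 and 77.1 TPM, and all 3 of these treated groups lay wholly above vehicle. The changes were 1.27 ± 0.26 (FDR 0.00364), 1.63 ± 0.26 (FDR 4.49e-05) and 0.86 ± 0.25 (FDR 0.0171), and the last was 0.59 (FDR 0.0738) without vehicle replicate 3. Dcn held 1100.2, 1299 and 1626 TPM in vehicle and 1670.2, 2091 and 2402 TPM at 30 nmol/kg, a rise without overlap of 0.60 ± 0.15 (FDR 0.00463). Lum, Bgn, Postn, Tgfbi and Thbs1 had -0.17, 0.07, 0.25, 0.12 and -0.22 and did not pass, nor did Fn1 (0.02), Fbn1 (-0.35) or Eln (0.47). Dcn and Thbs2 were the 2 members that lay wholly above vehicle at 30 nmol/kg (background 3.41%), and Col15a1 and Sparc the 2 wholly below (background 2.9%).

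Among proteases and inhibitors of eWAT 3 of 5 rose at 30 nmol/kg. Timp2, the most abundant of the inhibitors, held 589, 664 and 804 TPM in vehicle and 751, 841 and 906 TPM at 30 nmol/kg, with 0.32 ± 0.10 (FDR 0.0172). Timp3, which stays bound to the matrix, rose by 0.82 (FDR 0.0452), and Mmp14 from 81.7, 102 and 162.7 TPM to 139, 158 and 174 TPM, by 0.49 (FDR 0.0178). With sample quality weights Mmp14 and Timp2 did not pass (FDR 0.11 and 0.0523). Timp1, at 15.7, 28.4 and 39.4 TPM in vehicle and 12.1, 20.4 and 49.4 TPM at 30 nmol/kg, had -0.38 ± 0.64 (FDR 0.70), and Mmp2 had 0.23. The crosslinking enzymes Lox, Loxl1 and Loxl2 had 0.19, -0.26 and -0.28 and did not pass. Ccn2, a matricellular protein gene that TGF-beta induces, held 27.9, 39.98 and 64.5 TPM in vehicle, 59.8, 86.2 and 151 TPM with 20 nmol/kg and, with the highest dose, 54.3, 77.4 and 92.7 TPM. It rose by 1.10 (FDR 0.0141) and 0.86 (FDR 0.0166), whereas Tgfb1 (-0.27) and Acta2 (-0.17) did not pass. With the requirement of a log2 fold change of at least 1 in size, Col15a1 and Sparc fell and Thbs2 rose at 30 nmol/kg (background 4.07% and 2.28%).

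Between the compounds limma called no member in eWAT. At the equal molar dose of 20 nmol/kg the background was 0% lower and 0% higher, with 1 member at an unadjusted p under 0.05 by limma, 0 by edgeR and 0 by DESeq2. There the difference, BI 456906 minus semaglutide, was 0.35 (95% interval -0.20 to 0.89, FDR 0.983) for Thbs2, 0.06 (95% interval -0.32 to 0.44, FDR 0.986) for Sparc and 0.15 (95% interval -0.30 to 0.60, FDR 0.983) for Col15a1. For 30 nmol/kg of BI 456906 against 20 nmol/kg of semaglutide the background was 0% and 0%, with 5 members at an unadjusted p under 0.05 by limma, 0 by edgeR and 0 by DESeq2. Against 100 nmol/kg of semaglutide it was 0% and 0.0108%, with 6 at an unadjusted p under 0.05 by limma, 1 by edgeR and 2 by DESeq2. In that comparison Ccn2 differed by 1.23 (95% interval 0.70 to 1.76, FDR 0.052) and stood at 16.6, 30.7 and 52.7 TPM with semaglutide, against a vehicle median of 39.98 TPM. Without BI 456906 replicate 29 limma called 4 members in it.

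Beside these changes, the summed markers of mesothelium, the cell layer that covers the fat pad, held 8.78 to 94.2 TPM in eWAT of vehicle mice and 51.03 to 168 TPM at 30 nmol/kg, and 4 of 5 rose. Of the 10 fibroblast markers 2 rose, and the 6 macrophage markers (median change -0.14) and the 5 endothelial markers (median change -0.09) did not pass. Of the 6 hepatocyte markers Ttr (-3.96) and Serpina1a (-3.05) fell. Alb (-3.31), Apoa1 (-3.11), Fgb (-2.92) and Cyp2e1 (1.67) did not pass. Their sum held 115 to 6249 TPM in vehicle and 463 to 2452 TPM at 30 nmol/kg, and Alb reached 3680 TPM over the 42 eWAT libraries. Whether liver RNA entered some eWAT libraries, and bore on members abundant in liver such as Fn1 and Col18a1, was not tested. The part of any of these cells in the changes of the members was not tested either.

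**Figure D5:**
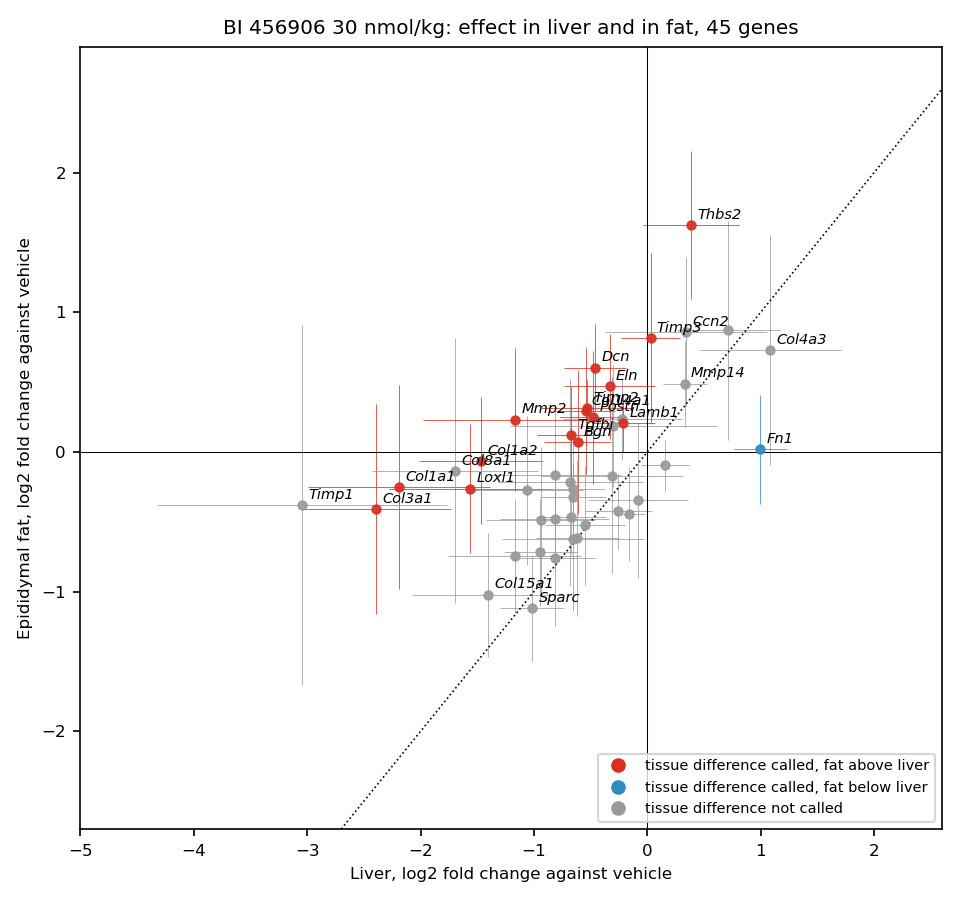
Log2 fold change at 30 nmol/kg of BI 456906 against vehicle in liver (x axis) and in eWAT (y axis) for the 45 members, with bars for the 95% interval and a dotted line at equal change. Coloured points mark the 16 members whose change differed between the tissues, of which 15 lie above the line and Fn1 lies below it.

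The change at 30 nmol/kg of BI 456906 differed between the tissues for 16 members, as tested by the difference of the effects (eWAT minus liver) in a fit of all 84 libraries over the 15297 genes kept in both. In 15 of them the eWAT value was the higher one, and in 1, Fn1, the lower (background 25.3% higher and 20.6% lower). With a difference of at least 1 in size the background was 6.82% higher and 7.43% lower, and 7 members passed upward, namely Col1a1, Col1a2, Col3a1, Dcn, Thbs2, Loxl1 and Mmp2, while Fn1 did not reach that size. Members called upward numbered 1, 9 and 12 at 3, 10 and 20 nmol/kg (background 1.08%, 13.5% and 16.8%) and 10 and 12 at 20 and 100 nmol/kg of semaglutide (15.8% and 16.7%). In these 5 comparisons no member was called downward with limma (background 2.29%, 13.2%, 15.1%, 16.1% and 17.2%), edgeR or DESeq2, and at an unadjusted p under 0.05 there was 1 with either dose of semaglutide and 0 with the doses of BI 456906. The share of members called upward was 2.22%, 20%, 26.7% and 33.3% over the doses of BI 456906 and 22.2% and 26.7% with semaglutide. In this fit each lay above its background, but at 3 nmol/kg the share was 1 member, Postn, and both TPM scales called 0 there. On log2(TPM + 1) the members called upward numbered 6, 7 and 11 at 10, 20 and 30 nmol/kg of BI 456906. With semaglutide at 20 and 100 nmol/kg they numbered 6 and 9. No background was computed on that scale, so these counts were not set against one. The share called downward was below the background in all 6 comparisons.

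Among the 16, the members that fell in liver and did not pass in eWAT were Col1a1 with a difference of 2.04 ± 0.56 (FDR 0.00178), Col3a1 with 2.09 ± 0.52 (FDR 0.000695), Col1a2 with 1.51 ± 0.38 (FDR 0.000782), Mmp2 with 1.5 ± 0.50 (FDR 0.0105), Loxl1 with 1.41 ± 0.48 (FDR 0.0132), Col14a1 with 0.95, Tgfbi with 0.90, Postn with 0.83 and Bgn with 0.79. Dcn, with 1.17 ± 0.22 (FDR 7.04e-06), and Timp2, with 0.96 ± 0.25 (FDR 0.00109), fell in liver and rose in eWAT. Thbs2, with 1.35 ± 0.38 (FDR 0.00254), and Timp3, with 0.89, rose in eWAT without passing in liver, and Fn1, with -0.87 ± 0.23 (FDR 0.00107), rose in liver without passing in eWAT. Eln (0.91) and Lamb1 (0.52) passed in neither tissue alone, and Lamb1 did not pass on the TPM scales. With 1 library left out Lamb1 kept its call in 24 of 36 fits. It lost it without eWAT vehicle replicate 1 (0.33, FDR 0.126), 3 or 4, without replicate 25, 26, 27 or 30 of BI 456906 at 30 nmol/kg, and without replicate 37, 38, 39, 41 or 42 of semaglutide at 100 nmol/kg. On log2(TPM + 1) the Loxl1 difference was 0.56 and did not pass (FDR 0.138), and the Timp2 difference was 0.60 (FDR 0.0222). The Fn1 difference was -0.49 on log2(TPM + 1) (FDR 0.0447). Without the filter on low counts only 5 members passed, and Col1a1, Col1a2, Col3a1, Thbs2, Lamb1, Loxl1 and Mmp2 were among those lost, with FDR 0.142 for Col1a1 and 0.19 for Col3a1 at almost equal differences.

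Col15a1 and Sparc fell in both tissues, with -1.40 and -1.01 in liver and -1.02 and -1.12 in eWAT. Their differences, 0.49 (95% interval -0.34 to 1.32, FDR 0.35) for Col15a1 and 0.00 (95% interval -0.49 to 0.49, FDR 0.995) for Sparc, did not pass. Of the other members that fell in eWAT at 30 nmol/kg, all but Nid1 also fell in liver. They were Col5a3, Col4a1, Col4a2, Col18a1, Col6a1, Col6a2 and Col16a1. Their tissue differences did not pass, with FDR from 0.0726 for Col4a1 to 0.749 for Col16a1. Timp1, with 2.78 (95% interval -0.47 to 6.03, FDR 0.159) and few reads in liver, did not pass either. At 100 nmol/kg of semaglutide the differences were 2.46 ± 0.55 (FDR 0.000352) for Col1a1 and 2.42 ± 0.52 (FDR 0.000216) for Col3a1, and 2.0 for each (FDR 0.00236 and 0.00159) without eWAT replicate 40. Under the other processing settings the highest FDR was 0.0674 for Col1a1 and 0.115 for Col3a1, so neither call held in all of them. Fn1 had -0.49 ± 0.23 (FDR 0.0879) with replicate 40 and -0.74 (FDR 0.00671) without it.

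A further 156 genes of the matrix were listed in 6 groups (other collagens, collagen folding and processing, other glycoproteins and proteoglycans, other proteases and inhibitors, the TGF-beta pathway, and matrix receptors). In liver at 30 nmol/kg 57 of 136 tested fell (41.9%, background 29.9%) and 30 rose (22.1%, background 28.9%), and in eWAT 19 of 150 fell (12.7%, background 13%) and 17 rose (11.3%, background 10.9%). The eWAT shares were near those of all genes. In liver the counts were 13 lower and 5 higher of 24 for folding and processing, 18 and 4 of 38 for glycoproteins and proteoglycans, 10 and 2 of 20 for proteases and inhibitors, 9 and 6 of 22 for the TGF-beta pathway, 5 and 8 of 19 for receptors and 2 and 5 of 13 for other collagens. In eWAT the counts were 1 lower and 2 higher of 26 for folding and processing, 5 and 5 of 40 for glycoproteins and proteoglycans, 2 and 1 of 25 for proteases, 4 and 1 of 18 for receptors, 3 and 3 of 19 for other collagens and 4 and 5 of 22 for the TGF-beta pathway. Serpinh1, the collagen chaperone HSP47, fell in both tissues, with -1.67 ± 0.25 (FDR 6.4e-07) in liver, with 13.9 to 26.6 TPM in vehicle and 4.97 to 8.94 TPM at 30 nmol/kg, and with -0.88 ± 0.18 (FDR 0.000571) in eWAT. In liver Pcolce, the enhancer of procollagen cleavage, had -1.09 ± 0.16 (FDR 4.67e-07). The TGF-beta receptor gene Tgfbr2 had -1.03 ± 0.11 (FDR 3.91e-10) in liver, while Tgfbr1 had 0.71 ± 0.08 (FDR 7.63e-10) and Skil, an inhibitor of TGF-beta signalling, 1.59 ± 0.13 (FDR 5.31e-12), with 2.48 to 3.55 TPM in vehicle and 8.9 to 12.3 TPM at 30 nmol/kg.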

How the data were processed

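Liver and eWAT of the same study were sequenced as 42 libraries each. The labels describe SMART-Seq v4 libraries read singly, whereas the study's methods for liver describe directional poly(A) libraries read from both ends, and which of these holds for which tissue is not given in the sources used here. The submitters' processing notes list STAR 2.5.2b, RSEM 1.3.0, featureCounts 1.5.1, FastQC 0.11.5 and the build GRCm38 (mm10). The authors deposited, per tissue, a table of signal per gene, which proved to be reads divided by 1 factor per library (100% of nonzero values were whole multiples of a step, within 0.001), and a table of TPM. No column lacked a sample. Neither measures RNA per cell, and a fold change is relative to the rest of the library.

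Genes were tested with limma/voom (limma 3.58.1, edgeR 4.0.16, R 4.3.3) on the signal as deposited, with TMM factors, a pseudocount of 0.5 and filterByExpr, in 1 fit per tissue over the 7 groups (15964 genes in liver, 18536 in eWAT). The study's methods name limma/voom. Differences between tissues were interaction contrasts in 1 fit of 84 libraries. The slope is a linear contrast over dose, per 10 nmol/kg. Levels between the tissues were not tested, since their tables were scaled separately. Genes were matched through GENCODE annotation of GRCm38. The plan assumed counts, and the voom fit on recovered reads was therefore an alternative. Further alternatives were RLE factors, library size alone, no filter, at least 10 reads in every library, edgeR's quasi-likelihood test and DESeq2 1.42.0 on recovered reads, log2(TPM + 1), log2(TPM + 0.1), sample quality weights and the compared groups alone. Leaving out single libraries (72 fits) was chosen after seeing the data. The fits within a tissue were also run on simulated liver counts with known changes and the same spread for all genes. That simulation held no outlying library and no tissue difference, so it does not bear on either.

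The members and gene lists were chosen with earlier results of these data known. Values are given for the 10 members with the smallest FDR at 30 nmol/kg in each tissue, the 10 with the smallest FDR of the tissue difference, and every member past both thresholds in any treated group, and the rest by ranges and counts. From each list of other matrix genes up to 3 with the smallest FDR per tissue could be named. No 2 libraries of a group were alike within counting noise (chi-square per degree of freedom at least 15.9 in liver and 13.3 in eWAT over 105 pairs each). The labels name no preparation batch, and p-values measure the spread between libraries.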

Additional observations from a re-analysis of the deposited data

Results flagged for a closer look

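The 26 members picked for printed values by the rule above, and the summed member collagens, were screened in each group of each tissue. The other members were not screened. Of these 378 sets of 6 values, 38 held a library whose gap to the others passed Dixon's limit, where chance alone flags about 1 set in 20. Most belonged to 3 libraries.

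In liver at 3 nmol/kg of BI 456906, replicate 49 was the highest for 9 values, with 653 TPM for the 19 summed member collagens, 13.5 TPM for Col1a1, 19.8 for Col1a2, 8.51 for Col6a2, 34.3 for Col14a1, 6.45 for Mmp2, 33.6 for Mmp14, 2.9 for Timp1 and 19.6 for Timp2. In the same group replicate 51 had 0.23 TPM of Col4a3. At 30 nmol/kg replicate 71 was the highest for 8 members, with 4.21 TPM for Col1a1, 8.64 for Col1a2, 10.1 for Col4a2, 171 for Dcn, 0.90 for Thbs1, 3.51 for Thbs2, 1.52 for Loxl1 and 21.6 for Timp2. Elsewhere in liver replicate 63 had 29.1 TPM of Mmp14 at 20 nmol/kg of BI 456906 and replicate 73 had 0.21 TPM of Col4a3 at 20 nmol/kg of semaglutide.

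In eWAT at 100 nmol/kg of semaglutide, replicate 40 was the highest for 7 members, with 1008 TPM for Col1a1, 1005 for Col1a2, 2271 for Col3a1, 89.9 for Col14a1, 486 for Thbs1, 229 for Tgfbi and 272 for Timp1. The summed cholangiocyte list, which includes Spp1, was also highest of all eWAT libraries in this one, at 1230 TPM. At 3 nmol/kg of BI 456906 replicate 9 had 25.5 TPM of Col14a1, 93.8 of Thbs2 and 62.3 of Loxl1, replicate 12 had 109.95 TPM of Thbs1 and replicate 8 had 104 TPM of Tgfbi. At 30 nmol/kg replicate 28 had 138 TPM of Col5a3 and 1873 of Sparc, and replicate 29 had 21.2 TPM of Col8a1, 80.9 of Thbs1 and 49.4 of Timp1. At 20 nmol/kg of semaglutide replicate 35 had 1033 TPM of Dcn.

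The change at 30 nmol/kg of BI 456906 differed between the tissues by the interaction test for 16 members. The difference of the log2 fold changes, eWAT minus liver, was 2.09 for Col3a1, 2.04 for Col1a1, 1.51 for Col1a2, 1.5 for Mmp2, 1.41 for Loxl1, 1.35 for Thbs2 and 1.17 for Dcn. It was 0.96 for Timp2, 0.95 for Col14a1, 0.91 for Eln, 0.90 for Tgfbi, 0.89 for Timp3, 0.83 for Postn, 0.79 for Bgn, 0.52 for Lamb1 and -0.87 for Fn1. No cause was tested for any of these values.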

How the results depend on the processing

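No paired analysis was possible because the labels do not tie a liver library to an eWAT library of the same mouse. Under 11 other settings, 278 counts of called members were recomputed for 26 comparisons, and 232 stayed within 1.5 times the reported count. For single genes, 52 called results of the members picked for printed values were followed. They were BI 456906 at its highest dose in liver, in eWAT and between the tissues, and semaglutide at its highest dose in eWAT. Of their 557 values 536 stayed on their side of the threshold, 21 lost their call and 0 changed sign. Uncalled results and other comparisons were not counted. In liver at the highest semaglutide dose the highest FDR was 0.132 for Col15a1, 0.122 for Thbs1, 0.0682 for Dcn and 0.0673 for Loxl1. The other calls of picked members there held. The causes of the changes were not tested, other than that fewer libraries enter a fit of the compared groups alone.

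Sample quality weights gave more calls: 21 and 26 in liver at 3 and 10 nmol/kg, 5 and 25 in eWAT at 10 and 30 nmol/kg, 32 eWAT slopes, 3 and 13 in liver for 30 nmol/kg against 100 and 20 nmol/kg of semaglutide, 21 and 11 for the same in eWAT, and 12, 21, 25, 17 and 22 tissue differences at 3, 10 and 20 nmol/kg and for 20 and 100 nmol/kg of semaglutide. The compared groups alone gave 0 in liver at 3 nmol/kg, 6 in liver for 30 nmol/kg against 20 nmol/kg of semaglutide, and in eWAT 0 at 20 nmol/kg, 0 with semaglutide at 20 and 2 at 100 nmol/kg. Without the filter, tissue differences numbered 0, 1, 2 and 5 over the doses of BI 456906 and 2 and 6 with semaglutide at 20 and 100 nmol/kg. For the tissue difference, log2(TPM + 1) gave 0 at 3 nmol/kg, 7 at 20 nmol/kg and 6 with semaglutide at 20 nmol/kg, log2(TPM + 0.1) gave 0 at 3 nmol/kg, and edgeR and DESeq2 gave 15 and 14 at 10 nmol/kg.

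For 30 nmol/kg of BI 456906 against 100 nmol/kg of semaglutide, library size alone, at least 10 reads in every library and DESeq2 gave 1 in liver. In eWAT RLE factors, library size alone, at least 10 reads in every library, both TPM scales and edgeR gave 1 and DESeq2 gave 2. Against 20 nmol/kg of semaglutide in liver, RLE factors, no filter, log2(TPM + 1) and edgeR gave 0 and DESeq2 gave 2.

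Leaving out each library in turn gave, in liver, 30 to 34 members at 30 nmol/kg, 21 to 27 with semaglutide at 100 nmol/kg, 32 to 35 slopes, 0 to 2 for 30 nmol/kg against 100 nmol/kg and 0 to 1 against 20 nmol/kg of semaglutide. In eWAT it gave 9 to 18 at 30 nmol/kg (9 without replicate 25, of which 4 lower, and 10 without replicate 26, of which 5 lower), 5 to 10 with semaglutide at 100 nmol/kg (5 without replicate 39), 13 to 21 slopes (13 without replicate 25), 0 to 4 for 30 nmol/kg against 100 nmol/kg (4 without replicate 29) and 0 against 20 nmol/kg of semaglutide. Tissue differences numbered 11 to 18 at 30 nmol/kg and 10 to 16 with semaglutide at 100 nmol/kg. Low levels in liver make the size of a change on the TPM scales depend on the pseudocount added to TPM. This holds for Timp1, Col4a3, Col4a4, Col8a1, Col15a1, Thbs1, Lox, Loxl1 and Loxl2, with vehicle medians of under 3 TPM. Depth also limits the rarest of them, such as Timp1 and Col4a3, whose read counts are given above. The same dependence on the TPM scales holds for Col5a1, Col5a2, Col12a1, Fbn1, Eln, Thbs2 and Lama2, with liver vehicle medians from 0.55 TPM (Lama2) to 2.83 TPM (Col5a1).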

Other observations

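Among the other matrix genes Col27a1, a fibrillar collagen of cartilage, set the compounds apart in liver. It held 13.3 to 33.03 TPM in vehicle and 3.54 to 5.77 TPM at 30 nmol/kg of BI 456906, with -2.16 ± 0.25 (FDR 3.92e-09), while at 100 nmol/kg of semaglutide it had -0.26 ± 0.24 (FDR 0.391). The difference between these groups was -1.90 ± 0.25 (FDR 2.37e-06). The heparan sulfate proteoglycan gene Sdc1 rose in liver with BI 456906, by 0.71 ± 0.08 (FDR 8.1e-10) with 112 to 129.9 TPM in vehicle and 173 to 225 TPM at 30 nmol/kg, and had 0.02 ± 0.08 (FDR 0.859) with semaglutide at 100 nmol/kg, a difference of 0.69 ± 0.08 (FDR 6.79e-08). Mmp15, a membrane-bound metalloproteinase, had -1.28 ± 0.15 (FDR 2.39e-09) and -0.72 ± 0.14 (FDR 8.3e-05), a difference of -0.55 ± 0.15 (FDR 0.0123). The integrin gene Itgav rose in liver by 1.01 ± 0.09 (FDR 8.5e-12). Its median in TPM went from 8.485 in vehicle to 11.565 at 30 nmol/kg, a smaller rise, so the size depends on the measure. The collagen receptor gene Itga1 rose in liver by 0.94 ± 0.12 (FDR 1.95e-08) and fell in eWAT, at -0.76 ± 0.23 (FDR 0.0138).

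In eWAT the largest falls among the named genes were in Ccn5, a matricellular relative of Ccn2, with 30.9 to 158 TPM in vehicle and 10.1 to 28.1 TPM at 30 nmol/kg and -2.38 ± 0.46 (FDR 0.000354), and in the laminin chain gene Lamb3, with 3.19 to 7.95 TPM in vehicle and 0.72 to 2.74 TPM at 30 nmol/kg and -1.89 ± 0.28 (FDR 1.94e-05). Both also fell with semaglutide at 100 nmol/kg, at -2.72 ± 0.49 (FDR 0.000216) and -2.12 ± 0.29 (FDR 1.24e-05). The perlecan gene Hspg2, another part of the basement membrane, fell at -0.49 ± 0.12 (FDR 0.00448). The type IV chain gene Col4a6 rose, with 0.37 to 1.35 TPM in vehicle and 1.68 to 4.55 TPM at 30 nmol/kg and 1.52 ± 0.38 (FDR 0.00397).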
